A study of Mus musculus with 6 samples.

Results

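The genes described here serve the folding of proteins in the endoplasmic reticulum, their delivery into it, the removal of those that misfold, and the stress response that watches over the process. They are a list of 44 among the 18194 genes that the array names by probe sets with 1 symbol, and every probe set that the platform annotation assigned to exactly 1 of them was included. This gave 122 probe sets of the 45101 on the array, between 1 and 6 a gene, and all 44 genes were found. Of the probe sets, 116 carried the listed symbol and 6 carried Ero1a or Ero1b, the current symbols of Ero1l and Ero1lb.

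Female C57BL/6 mice were ovariectomized at 4 months of age and then received a placebo pellet (OVX) or a pellet releasing 0.18 mg of 17β-estradiol over 60 days (OVX + E2). Both groups had lost their ovaries, so the comparison is of E2 replacement with no replacement. RNA of 3 samples a group was hybridized to Affymetrix mouse genome arrays, 1 array a sample, to ask which genes of the muscle respond to E2. Sample labels give the tissue as left ventricle, and the paper gives soleus, a limb muscle. Of a list of 10 skeletal muscle genes, 8 reached the top 5% of the array with their brightest probe set, against 1 of 10 heart genes. Heart also makes 4 of the 8 (Acta1, Ckm, Des and Mb), and of the 6 listed genes that leaves, 4 reached it (Myh2, Ryr1, Tnni1 and Tnnt1). No source used here says that each sample came from a mouse of its own, and the p-values therefore cover the spread between samples, some or all of which may be technical.

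Secreted and membrane proteins enter the endoplasmic reticulum through the Sec61 translocon, where the oligosaccharyltransferase attaches sugar chains to the growing polypeptide. Chaperones such as BiP (Hspa5) and the lectins calreticulin and calnexin hold the unfinished chain, and protein disulfide isomerases form its disulfide bonds. A protein that fails to fold is trimmed, recognized and pulled back to the cytosol for the proteasome, a route called endoplasmic reticulum-associated degradation (ERAD). When misfolded proteins pile up, the sensors IRE1α (Ern1), PERK (Eif2ak3) and ATF6 start the unfolded protein response, which raises transcription of chaperone and ERAD genes. In muscle fibres the same membrane system, as sarcoplasmic reticulum, stores the calcium for contraction.

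Promoters of chaperone genes are known for the endoplasmic reticulum stress element, to which ATF6 and the spliced form of XBP1 bind. It reads CCAAT, 9 free bases and CCACG, and it was searched on both strands of the promoters that RefSeq gives for GRCm38.p6, each 300 bases long, from 250 before the start of transcription to 50 after it. Promoters were listed for 39 of the genes, and not for Atf6, Derl1, Hyou1, Sec61a1 and Sil1. The element was found in 8 of the 39 genes (20.5%), or 8 of their 41 promoters, against 0.119% of all 32851 promoters. Since the element is known from chaperone promoters, finding it here adds no independent support. The matches are printed below. Other genes of the stress response, Xbp1, Ddit3 and Herpud1 among them, had none. Each line runs 5′ to 3′ on the strand of the gene, with 15 bases on either side, and capitals mark the CCAAT and CCACG parts, or their reverse complements ATTGG and CGTGG where the element lies on the opposite strand.
Hspa5, chr2:34772010-34772058, + strand: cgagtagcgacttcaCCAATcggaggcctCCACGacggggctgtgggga
Hsp90b1, chr10:86705518-86705566, - strand: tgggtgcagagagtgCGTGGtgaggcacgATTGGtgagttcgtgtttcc
Hsp90b1, chr10:86705623-86705671, - strand: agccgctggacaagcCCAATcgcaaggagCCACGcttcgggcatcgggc
Calr, chr8:84847060-84847108, - strand: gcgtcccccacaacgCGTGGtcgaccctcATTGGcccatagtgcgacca
Canx, chr11:50325785-50325833, - strand: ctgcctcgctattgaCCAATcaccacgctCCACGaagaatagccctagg
Dnajc3, chr14:118937812-118937860, + strand: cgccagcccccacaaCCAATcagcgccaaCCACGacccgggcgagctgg
Ero1b, chr13:12565667-12565715, + strand: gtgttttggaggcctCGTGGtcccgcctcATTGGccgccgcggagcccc
Pdia6, chr12:17266476-17266524, + strand: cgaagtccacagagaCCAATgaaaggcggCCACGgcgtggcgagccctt
Syvn1, chr19:6046517-6046565, + strand: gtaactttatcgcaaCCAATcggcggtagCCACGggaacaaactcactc

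Hsp90b1 carried the element at 2 places, and in Hspa5 it ended 47 bases before the start. Of the 8 genes, 7 belong to the folding machinery and Syvn1 to ERAD. The part CCACG alone, which also counts every full element, was found in 29 of the 39 genes (74.4%) and in 32.8% of all promoters. TGACGTG, another site of the stress response, was found in Hspa5 alone among these genes and in 2.01% of all promoters. The amino acid response element of ATF4 (TGATG, 1 free base, AAT) occurred in 0 of the 39 genes and 0.965% of all promoters. The estrogen response element (GGTCA, 3 free bases, TGACC) occurred in 0 of the 39 genes and 0.07% of all promoters. Such matches describe the letters in these windows and not binding. At shares this low, 0 of 39 genes says little about the ATF4 and estrogen response elements. The paper searched a longer region of other genes by predicted binding affinity, so this 0 cannot be set beside its result.

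Values below are the deposited log2 values in arbitrary units, and a difference is OVX + E2 minus OVX, negative where E2 is lower. Each probe set was tested with limma, and the limit of the study was an unadjusted p of 0.001. A probe set is called lower or higher here at an unadjusted p under 0.05, a loose limit that is read only against the share of all probe sets past it. The p printed for a single probe set is adjusted over the whole array. The mean over the 6 arrays ran from 6.28 to 10.96 among the 122 probe sets, against a median of 6.92 over the array. Fibre genes set some arrays apart: the mean of 12 fast-fibre genes lay 0.78 above the 6-array mean on OVX replicate 3 and stood at -1.29 on OVX + E2 replicate 3. Results are therefore also given without both arrays numbered 3. RNA comes from whole muscle, in which fewer cells of a type and less RNA per cell cannot be told apart.

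With E2, more of these genes were lower than higher, by small amounts, and none passed the limit of the study in the limma fit used here. Over the whole array, fewer probe sets passed in this fit than the paper reports. Whether any of these genes is on the paper's own list was not checked, so passing the limit refers to this fit throughout. Of 122 probe sets 82 had a difference below 0 (67.2%, against 52.3% of all probe sets), and the median difference was -0.05, against -0.0049 over all probe sets. At an unadjusted p under 0.05, 24 probe sets of 19 genes were lower (19.7%) and 3 probe sets of 3 genes were higher (2.46%). Of all probe sets 9.43% were lower and 4.35% higher. At an unadjusted p of 0.001, 0 of the 122 passed in limma, where 0.213% of all probe sets did, and the smallest Benjamini-Hochberg adjusted p among the members was 0.308. Every OVX + E2 array lay below every OVX array for 23 probe sets and above it for 4, and over the whole array this held for 11.4% and 9.76%.

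The excess of lower probe sets moved with brightness. Among member probe sets with a mean of 8 or more, 20 of 65 were lower (30.8%), and 32.8% of all probe sets that bright were. Their median difference was -0.11, against -0.13 for all probe sets of that brightness. Between means of 6 and 7, 0 of 22 members were lower and the median was 0.04, against 0.02 for all. Within the bright probe sets the roles stood on either side of the 32.8%: 6 of 15 of ERAD, 5 of 9 of the translocon and 5 of 9 of the oligosaccharyltransferase were lower, and 3 of 19 of the chaperones and 0 of 10 of the stress response were.

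**Figure D1:**
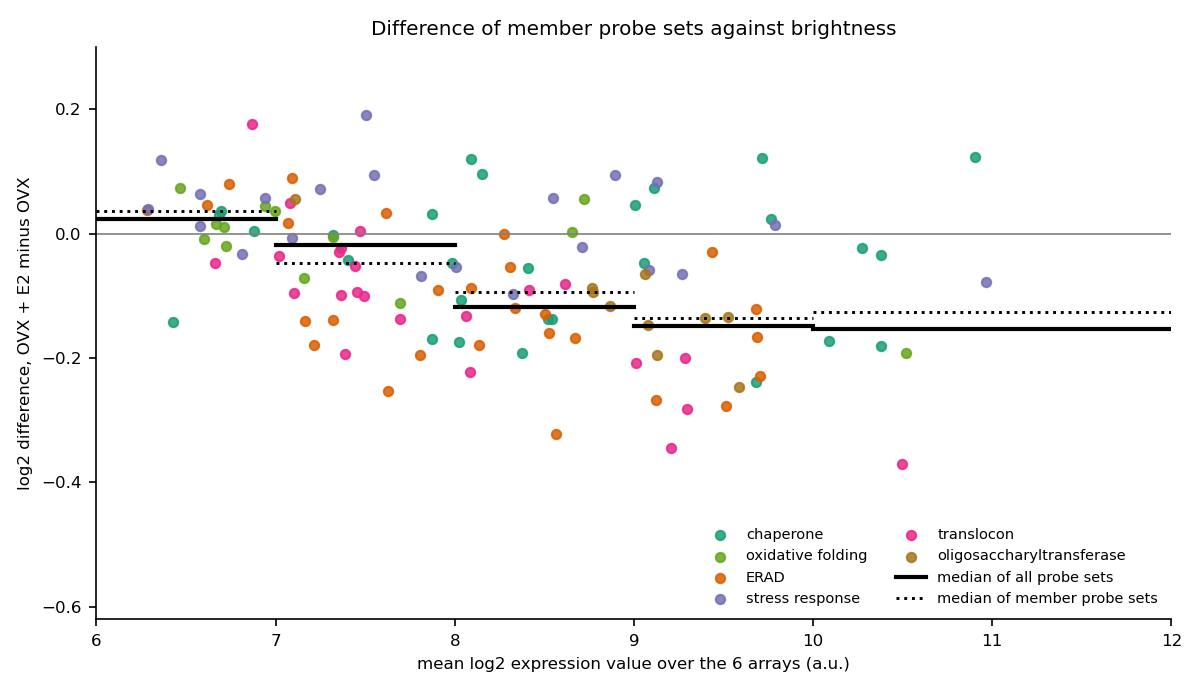
Difference with E2 (log2, OVX + E2 minus OVX, vertical axis) of the 122 member probe sets against their mean over the 6 arrays (log2, horizontal axis), with the medians of all probe sets (solid) and of the members (dotted) in bins of brightness. Both medians go down together, from 0.04 in the members and 0.02 in all at means of 6 to 7 to -0.14 and -0.15 at means of 9 to 10.

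Cyclic loess, which removes a dependence of the difference on brightness between arrays, changed the balance. After it 7 of the 122 probe sets were lower (5.74%) and 10 were higher (8.20%), where 4.02% of all probe sets were lower and 3.57% higher. Quantile normalization gave 3 lower (2.46%) and 11 higher (9.02%), against 3.33% and 4.46% of all probe sets. Of the 17 called after cyclic loess, 8 had also been called as deposited. The 7 lower were 2 of Rad23b and 1 each of Sel1l, Os9, Derl2, Sil1 and Ssr3. The 10 higher were 2 each of Hspa5 and Ern1 and 1 each of Hyou1, Dnajc3, Dnajb9, Pdia6, Derl1 and Ddit3.

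The roles differed in their counts and in brightness, with median levels from 7.0 in oxidative folding to 9.07 in the oligosaccharyltransferase. Of all probe sets 9.43% were lower and 4.35% higher. Among those with a mean of 8 or more, 32.8% were lower. ERAD had 9 of 27 probe sets lower (33.3%), in 7 of 10 genes, with a median of -0.13. That median moved to -0.02 after cyclic loess and to -0.0033 after quantile normalization. Of the 27 probe sets, 17 were below 0 after cyclic loess (63.0%) and 15 after quantile normalization (55.6%). Of all probe sets 51.2% and 47.0% were. The translocon had 5 of 23 lower (21.7%) and 1 higher, with a median of -0.10, and -0.07 after cyclic loess. The oligosaccharyltransferase had 5 of 10 lower, in all 4 of its genes, and a median of -0.13 that turned to 0.01 after cyclic loess and 0.03 after quantile normalization. Chaperones had 4 of 28 lower (14.3%) and a median of -0.04 that turned to 0.0045 and 0.01. Oxidative folding had 1 of 13 lower (7.69%) and a median of 0.0019, which turned to -0.01 after either. The stress response was the one role with 0 lower, of 21, and had 2 higher (9.52%) and a median of 0.01, which was 0.07 after cyclic loess, 0.08 after quantile normalization and -0.0033 with each array centred on its median. Differences between roles were not tested.

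**Figure D2:**
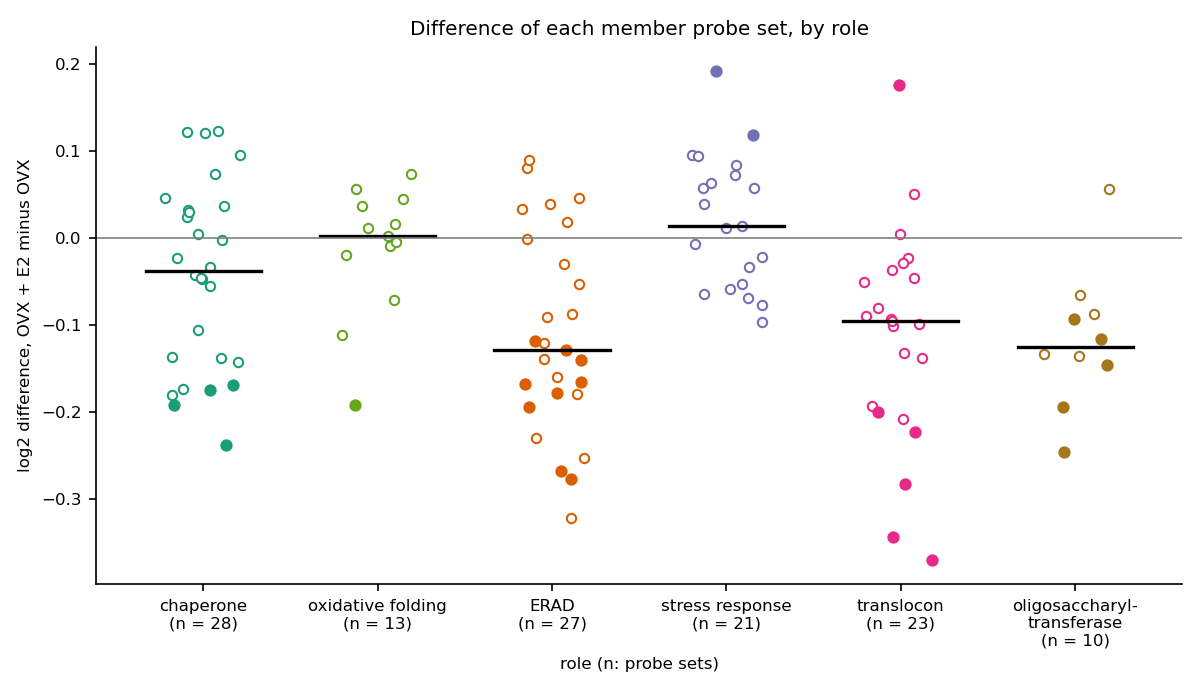
Difference with E2 (log2, OVX + E2 minus OVX, vertical axis) of each member probe set from the deposited values, by role (horizontal axis), where filled points passed an unadjusted limma p under 0.05 and lines are medians. ERAD and translocon medians lie at -0.13 and -0.10, and at -0.02 and -0.07 after cyclic loess. The stress response lies at 0.01 with no filled point below 0. Medians of chaperones, oxidative folding and oligosaccharyltransferase change sign after cyclic loess, to 0.0045, -0.01 and 0.01.

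Single arrays carried part of this. Averaged over the 27 ERAD probe sets, the deviation from the 6-array mean was 0.05, 0.01 and 0.10 on the OVX arrays and -0.03, -0.0042 and -0.13 on the OVX + E2 arrays. The translocon gave 0.10, 0.03 and 0.05 against -0.02, -0.0069 and -0.15. Groups did not overlap in either role, and both had their lowest value on OVX + E2 replicate 3. The same held for the mean over all probe sets of the array, at 0.0090, 0.0106 and 0.0175 against -0.0083, -0.0004 and -0.0283. Groups did not overlap for the chaperones and the oligosaccharyltransferase either. After cyclic loess those of ERAD overlapped, since OVX replicate 2 lay at -0.0064 and OVX + E2 replicate 2 at 0.0139. Averaged over the stress response the deviations were -0.01, -0.01 and -0.0047 on the OVX arrays against -0.02, 0.07 and -0.02 with E2, where replicate 2 alone stood above OVX. Without both arrays numbered 3, 17 probe sets were lower (13.9%) and 2 higher (1.64%), 10 of them called as deposited, where 7.54% of all probe sets were lower and 2.1% higher. The ERAD median moved to -0.06. Without OVX + E2 replicate 3 alone the translocon median was -0.05 and that of the chaperones -0.01, and without OVX + E2 replicate 2 that of the stress response was -0.02. Of the 27 probe sets called as deposited, 10 kept their call whichever array was left out, and between 12 (without OVX replicate 1) and 23 (without OVX replicate 2) kept it without a given array.

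**Figure D3:**
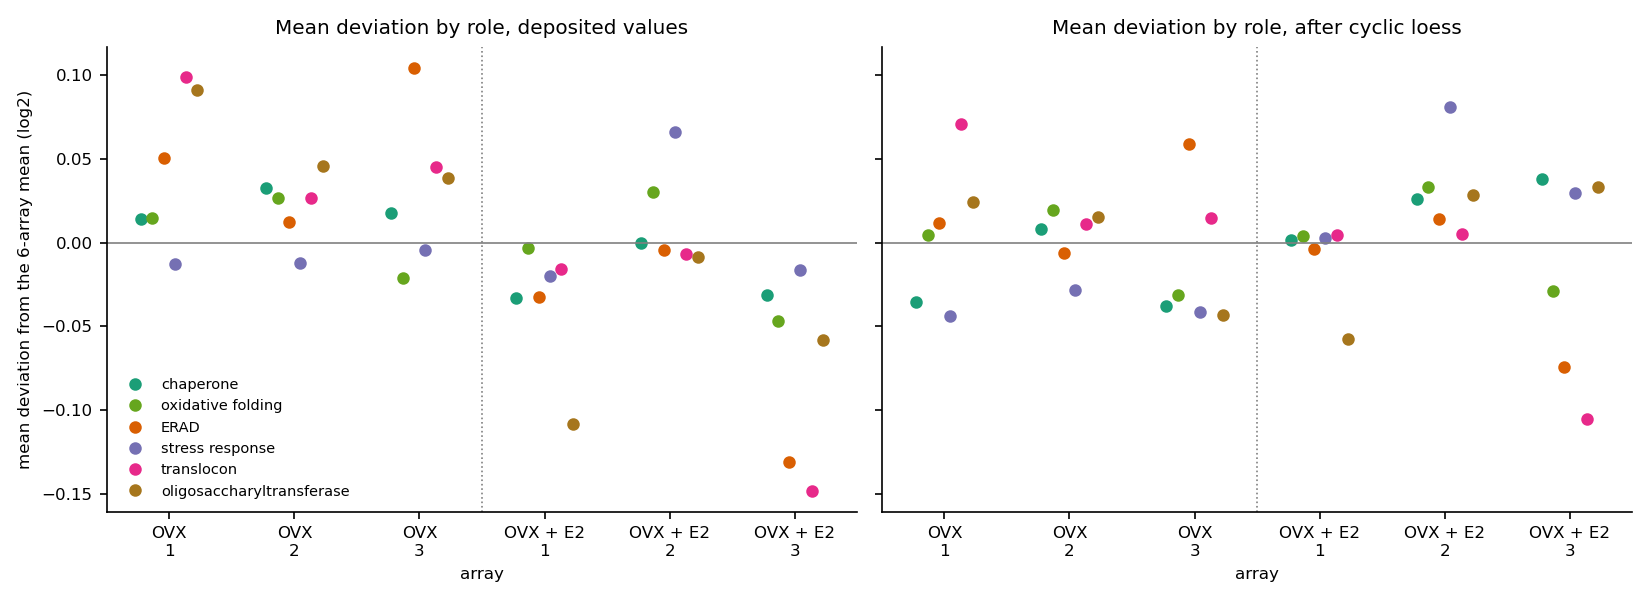
Mean deviation of each role's probe sets from the 6-array mean (log2, vertical axis) on each array (horizontal axis), as deposited (left) and after cyclic loess (right). As deposited, OVX + E2 replicate 3 holds the lowest ERAD (-0.13) and translocon (-0.15) values. After cyclic loess the chaperone values of all 3 OVX + E2 arrays lie above 0 while those of OVX lie between -0.04 and 0.01. These groups overlap, since OVX replicate 2 (0.0082) lies above OVX + E2 replicate 1 (0.0017).

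ERAD held the members with the smallest p. Sel1l, the adaptor that holds the ubiquitin ligase HRD1 to its substrates, measured 9.68, 9.58 and 9.70 on the OVX arrays and 9.46, 9.33 and 9.33 on the OVX + E2 arrays. All 3 E2 arrays lay below all OVX arrays, with a difference of -0.28 ± 0.055 (SE), a fold of 0.825 (adjusted p = 0.308 in limma). After cyclic loess the difference was -0.13 and the probe set was still called lower. Of its 5 probe sets 4 were below 0, and the dim 1453559_a_at lay at 0.09 ± 0.054. Probe set 1430692_a_at ran from 7.53 to 7.98 in OVX and from 7.04 to 7.82 in OVX + E2, lowest on replicate 3.

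Rad23b, a ubiquitin receptor that carries substrates to the proteasome and also takes part in DNA repair, had 2 of 4 probe sets lower. Its probe set 1450903_at measured 9.18, 9.27 and 9.32 on the OVX arrays against 9.05, 8.93 and 8.98 with E2. The groups did not overlap, and the difference was -0.27 ± 0.053 (adjusted p = 0.308 in limma), or -0.13 after cyclic loess. The dimmer 1455420_at was lower too, at -0.19 ± 0.054, and at -0.14 after cyclic loess, where both were still called. The brightest probe set measured 9.75, 9.59 and 9.88 against 9.65, 9.64 and 9.57, groups that overlap, with a difference of -0.12 ± 0.074 (adjusted p = 0.481).

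Derl1, a channel protein of the export step, gave 9.50, 9.42 and 9.42 on the OVX arrays against 9.38, 9.46 and 9.42 with E2 on its brightest probe set, a difference of -0.03 ± 0.043 with overlapping groups. After cyclic loess this probe set was called higher, at 0.11. Another, 1415693_at, measured 8.52, 8.55 and 8.63 against 8.45, 8.45 and 8.43, a difference of -0.13 ± 0.042 (adjusted p = 0.318) with no overlap, which was -0.02 after cyclic loess and no longer called. Its paralogue Derl2 had 1 of 2 lower, at -0.14 ± 0.052, and the same probe set was still called after cyclic loess, at -0.15.

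Herpud1, a scaffold of the HRD1 complex that endoplasmic reticulum stress induces, measured 9.67, 9.80 and 10 on the OVX arrays against 9.73, 9.61 and 9.43 with E2. The groups overlap, and the difference of -0.23 ± 0.10 missed the loose limit (adjusted p = 0.371) and was -0.14 without OVX replicate 3. Its other probe set measured 9.77, 9.68 and 9.87 against 9.65, 9.66 and 9.51, with no overlap. It was lower by this measure, at -0.17 ± 0.063 (adjusted p = 0.344), but lay at -0.02 after cyclic loess and 0.0036 after quantile normalization. The lectin Os9, which hands over trimmed glycoproteins, had both probe sets lower, at -0.12 ± 0.048 and -0.18 ± 0.073. The first, the brighter, lay at -0.02 after cyclic loess and was no longer called. The second was still called, at -0.18, though its groups overlap as deposited. Neither kept its call without OVX replicate 1 or without OVX + E2 replicate 1 or 3. Edem3, one of the mannosidase-like proteins that mark substrates, had 1 of 2 lower, at -0.17 ± 0.069, or -0.0981 without OVX replicate 3, where it was no longer called, and Edem1 and Edem2 had 0 of 4. Syvn1, the HRD1 ligase itself, measured 8.35, 8.38 and 8.28 against 8.24, 8.30 and 8.31, overlapping groups with a difference of -0.05 ± 0.043 (adjusted p = 0.581).

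The translocon held the largest differences among these genes. Ssr3, a subunit of the translocon-associated protein complex, measured 10.74, 10.44 and 10.86 on the OVX arrays against 10.48, 10.29 and 10.17 with E2 on its brightest probe set. The groups touch, since OVX replicate 2 lies below OVX + E2 replicate 1, and the difference was -0.37 ± 0.12, a fold of 0.774 (adjusted p = 0.318). On 1447053_x_at the values were 9.53, 9.20 and 9.40 against 9.11, 9.11 and 8.88, with no overlap and a difference of -0.34 ± 0.097 (adjusted p = 0.308 in limma). This probe set was called lower in 15 of 15 alternative settings, cyclic loess among them (-0.21). Probe sets whose names end in _x_at or _s_at, as this one does, can match several transcripts.

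Sec62, which helps proteins enter after their synthesis, measured 9.44, 9.40 and 9.48 on the OVX arrays against 9.27, 9.23 and 8.97 with E2 on its brightest probe set. The groups did not overlap, with a difference of -0.28 ± 0.080 (adjusted p = 0.308) that was -0.14 after cyclic loess and no longer called, and -0.19 without OVX + E2 replicate 3, still called. Probe sets of the gene went both ways. The probe set 1433704_s_at was lower, at -0.20 ± 0.074, and the dim 1444811_at was higher, with 6.73, 6.85 and 6.75 against 6.90, 7.09 and 6.88 (0.18 ± 0.066, or 0.11 without OVX + E2 replicate 2, no longer called). Sec61a1, the pore of the translocon, measured 8.66, 8.45 and 8.27 against 8.34, 8.51 and 8.26, overlapping groups with a difference of -0.09 ± 0.11 (adjusted p = 0.714). Of its 6 probe sets 5 were below 0 and 1448242_at was lower, at -0.22 ± 0.073, with 8.27, 8.21 and 8.11 against 8.02, 8.07 and 7.83. Sec61b had a difference of -0.21 ± 0.094 (adjusted p = 0.379), and all 5 probe sets of Sec63 and all 4 of Ssr1 lay below 0 with none called.

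All 4 genes of the oligosaccharyltransferase had a lower probe set as deposited, by small amounts, and none did after cyclic loess. Rpn1, a subunit beside the translocon, measured 9.62, 9.64 and 9.51 on the OVX arrays against 9.31, 9.55 and 9.51 with E2 on its brightest probe set, with overlap and a difference of -0.13 ± 0.072 (adjusted p = 0.432). Its 1438943_x_at measured 9.18, 9.15 and 9.12 against 8.93, 9.04 and 9.04, with no overlap and a difference of -0.15 ± 0.045 (adjusted p = 0.311), which was -0.01 after cyclic loess. Of the 6 Rpn1 probe sets 5 were below 0 and only this 1 was called, and 1459778_at lay at 0.06 ± 0.057. Dad1, named for the death of cells that lack it, measured 9.75, 9.53 and 9.85 against 9.50, 9.57 and 9.32. Its groups overlap, and the difference was -0.25 ± 0.095 (adjusted p = 0.346), or -0.11 without both arrays numbered 3. Rpn2 measured 8.97, 8.93 and 8.88 against 8.84, 8.78 and 8.82, separate groups with a difference of -0.12 ± 0.040 (adjusted p = 0.325) that turned to 0.0095 after cyclic loess. Ddost, at -0.09 ± 0.039, turned to 0.03.

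Chaperones went both ways. Hspa5 (BiP), the main lumenal chaperone and the usual sign of the unfolded protein response, measured 10.82, 11.03 and 10.68 on the OVX arrays against 10.77, 11.09 and 11.03 with E2. The groups overlap over nearly their whole range, and the difference of 0.12 ± 0.11 was not called (adjusted p = 0.624). Its other 2 probe sets lay at 0.12 and 0.05, so all 3 were above 0, and after cyclic loess they lay at 0.27, 0.27 and 0.18, the last 2 of them called higher. Without both arrays numbered 3 the brightest was at 0.01. Hsp90b1 (GRP94), the HSP90 of the endoplasmic reticulum, measured 9.80, 9.79 and 9.66 against 9.70, 9.71 and 9.92, overlapping groups with a difference of 0.02 ± 0.071 (adjusted p = 0.888).

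Calr, the calcium-binding lectin chaperone calreticulin, was on the lower side. Its brightest probe set measured 10.41, 10.49 and 10.51 on the OVX arrays against 10.32, 10.10 and 10.45 with E2, a difference of -0.18 ± 0.086 (adjusted p = 0.394), with overlap between OVX replicate 1 and OVX + E2 replicate 3. Without OVX + E2 replicate 2 it was -0.0874. On 1433806_x_at the values were 9.77, 9.82 and 9.81 against 9.57, 9.44 and 9.68, with no overlap and a difference of -0.24 ± 0.063 (adjusted p = 0.308 in limma). All 3 probe sets were below 0, and this one lay at -0.09 after cyclic loess, no longer called. Calnexin (Canx), its membrane-bound relative, had 0 of 3 called.

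Among the partners of BiP, Sil1, which frees it of its nucleotide, measured 7.98, 7.91 and 7.98 on the OVX arrays against 7.86, 7.75 and 7.76 with E2. The groups did not overlap, with a difference of -0.17 ± 0.045 (adjusted p = 0.308), and Sil1 was the one chaperone still called lower after cyclic loess (-0.11). Hyou1, which has the same task, had all 3 probe sets above 0 and none called, the brightest at 0.10 ± 0.067, and that one was called higher after cyclic loess (0.18). Dnajc3, a J-domain co-chaperone, gave opposite signs. Its brightest probe set measured 8, 8.16 and 7.93 against 8.11, 8.24 and 8.10, a difference of 0.12 ± 0.070 (adjusted p = 0.458). Its 1419163_s_at measured 8.06, 8.09 and 8.19 against 7.96, 7.99 and 7.87, with no overlap and a difference of -0.17 ± 0.052 (adjusted p = 0.310). The J-domain reductase Dnajc10 had 1 of 3 lower, at -0.19 ± 0.071, or -0.12 without OVX replicate 3, no longer called. Dnajb9, Dnajb11 and Uggt1, the folding sensor that re-tags glycoproteins, had none.

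Of the disulfide-forming enzymes only P4hb had a called probe set. P4hb, protein disulfide isomerase, measured 10.60, 10.62 and 10.62 on the OVX arrays against 10.54, 10.40 and 10.32 with E2. The groups were separate, with a difference of -0.19 ± 0.058 (adjusted p = 0.310), or -0.05 after cyclic loess, where it was no longer called. Ero1a, the oxidase that recharges it, measured 7.75, 7.79 and 7.71 against 7.60, 7.79 and 7.53, a difference of -0.11 ± 0.069 (adjusted p = 0.488). Ero1b measured 6.65, 6.77 and 6.79 against 6.66, 6.70 and 6.78, a difference of -0.02 ± 0.053 (adjusted p = 0.880). Both pairs of groups overlap, and Ero1b lies below the median of the array. Pdia3, Pdia4 and Pdia6 lay between -0.0049 and 0.06, and the brightest of Pdia6 was called higher after cyclic loess, at 0.18.

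**Figure D4:**
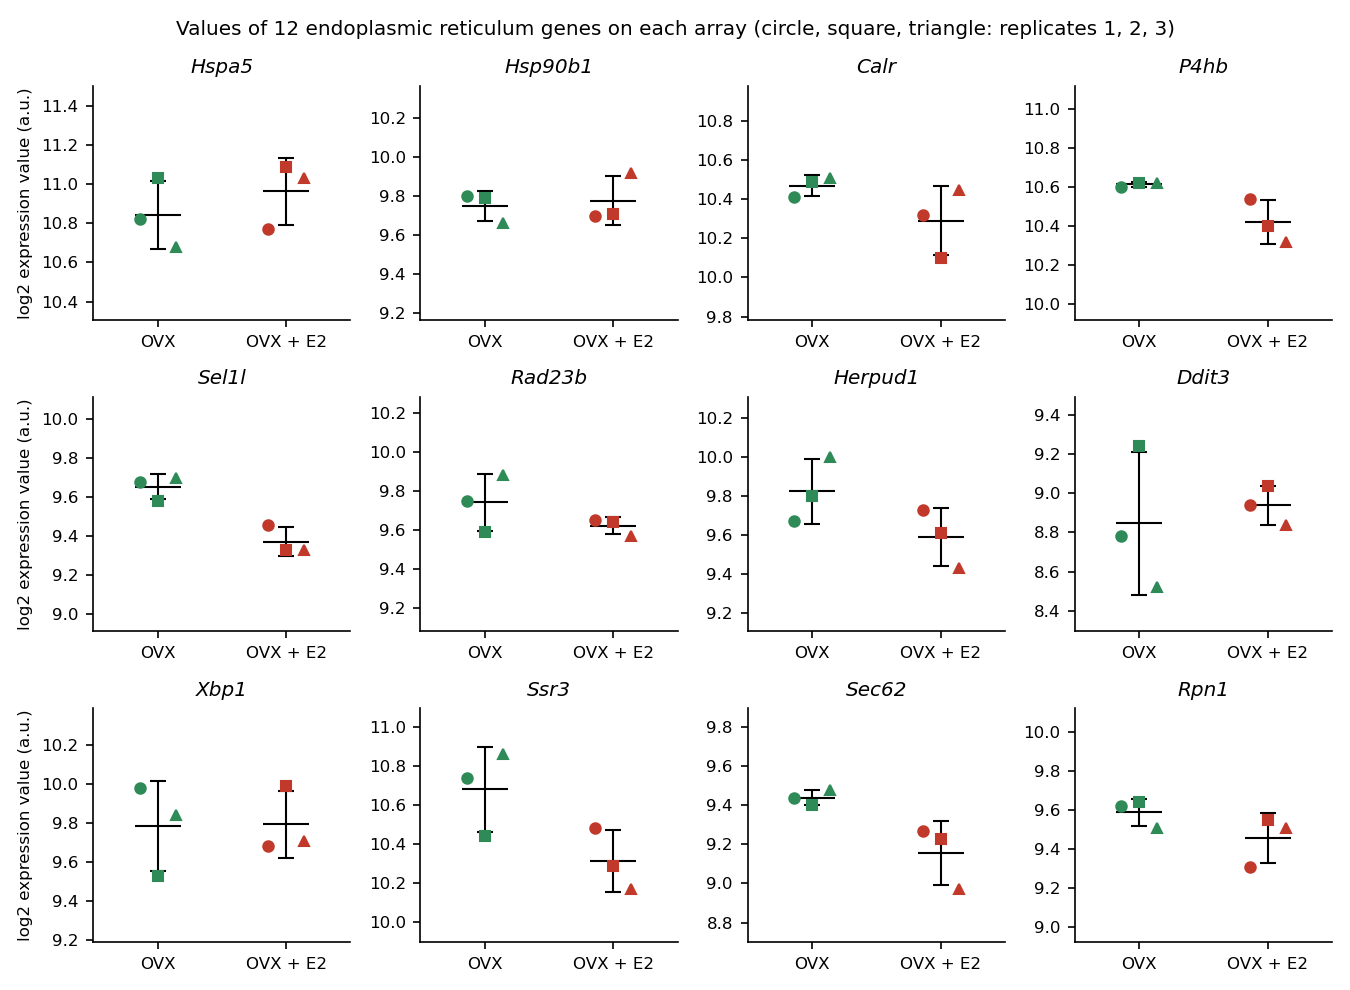
Deposited log2 value in arbitrary units (vertical axes) on each of the 3 OVX and 3 OVX + E2 arrays (horizontal axes) for the brightest probe set of 12 genes, each point an array, with the group mean and SD as lines. Sel1l, Sec62 and P4hb show separate groups, and Hspa5, Xbp1 and Ddit3 show groups that overlap.

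Among the 21 probe sets of the stress response role, 0 were lower, where 9.43% of all probe sets were. Chaperone and ERAD genes, which the response raises, were counted in their own roles, where some were lower. Ern1 (IRE1α), the kinase and endonuclease that splices Xbp1, measured 8.59, 8.42 and 8.54 on the OVX arrays against 8.58, 8.73 and 8.43 with E2, overlapping groups with a difference of 0.06 ± 0.083 (adjusted p = 0.764). All 5 of its probe sets lay above 0, and the dim 1431886_at was higher, with 6.33, 6.36 and 6.21 against 6.43, 6.38 and 6.45 (0.12 ± 0.050, or 0.0739 without OVX replicate 3, no longer called). After cyclic loess the brightest was called higher, at 0.17. Eif2ak3 (PERK), the kinase that slows translation, measured 7.09, 7.13 and 7.07 against 7.03, 7.11 and 7.12, a difference of -0.0070 ± 0.041 (adjusted p = 0.946). Atf6, the sensor that is cut to release a transcription factor, measured 8.27, 8.46 and 8.40 against 8.25, 8.29 and 8.30, with overlap and a difference of -0.10 ± 0.053 (adjusted p = 0.439). All 3 of its probe sets lay below 0.

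Among the transcription factors downstream, Atf4 measured 10.88, 11.07 and 11.06 on the OVX arrays against 10.96, 10.91 and 10.91 with E2, overlapping groups with a difference of -0.08 ± 0.059 (adjusted p = 0.558). Only 1 of its 3 probe sets was below 0. Xbp1 measured 9.98, 9.53 and 9.84 against 9.68, 9.99 and 9.71, a difference of 0.01 ± 0.13 (adjusted p = 0.967), with a spread within groups many times the difference between them. Splicing of Xbp1 was not analysed here. Ddit3 (CHOP), which Atf4 induces and which promotes cell death, measured 8.78, 9.24 and 8.52 against 8.94, 9.04 and 8.84, a difference of 0.09 ± 0.17 (adjusted p = 0.809). Its dimmer 1443897_at was higher, with 7.28, 7.51 and 7.44 against 7.51, 7.64 and 7.66, groups that meet at 7.51 and differ by 0.19 ± 0.070 (adjusted p = 0.336). It was still called after cyclic loess, at 0.22, but not without OVX replicate 1, at 0.13. Ppp1r15a, the phosphatase subunit that restarts translation, lay at -0.02 ± 0.11.

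**Figure D5:**
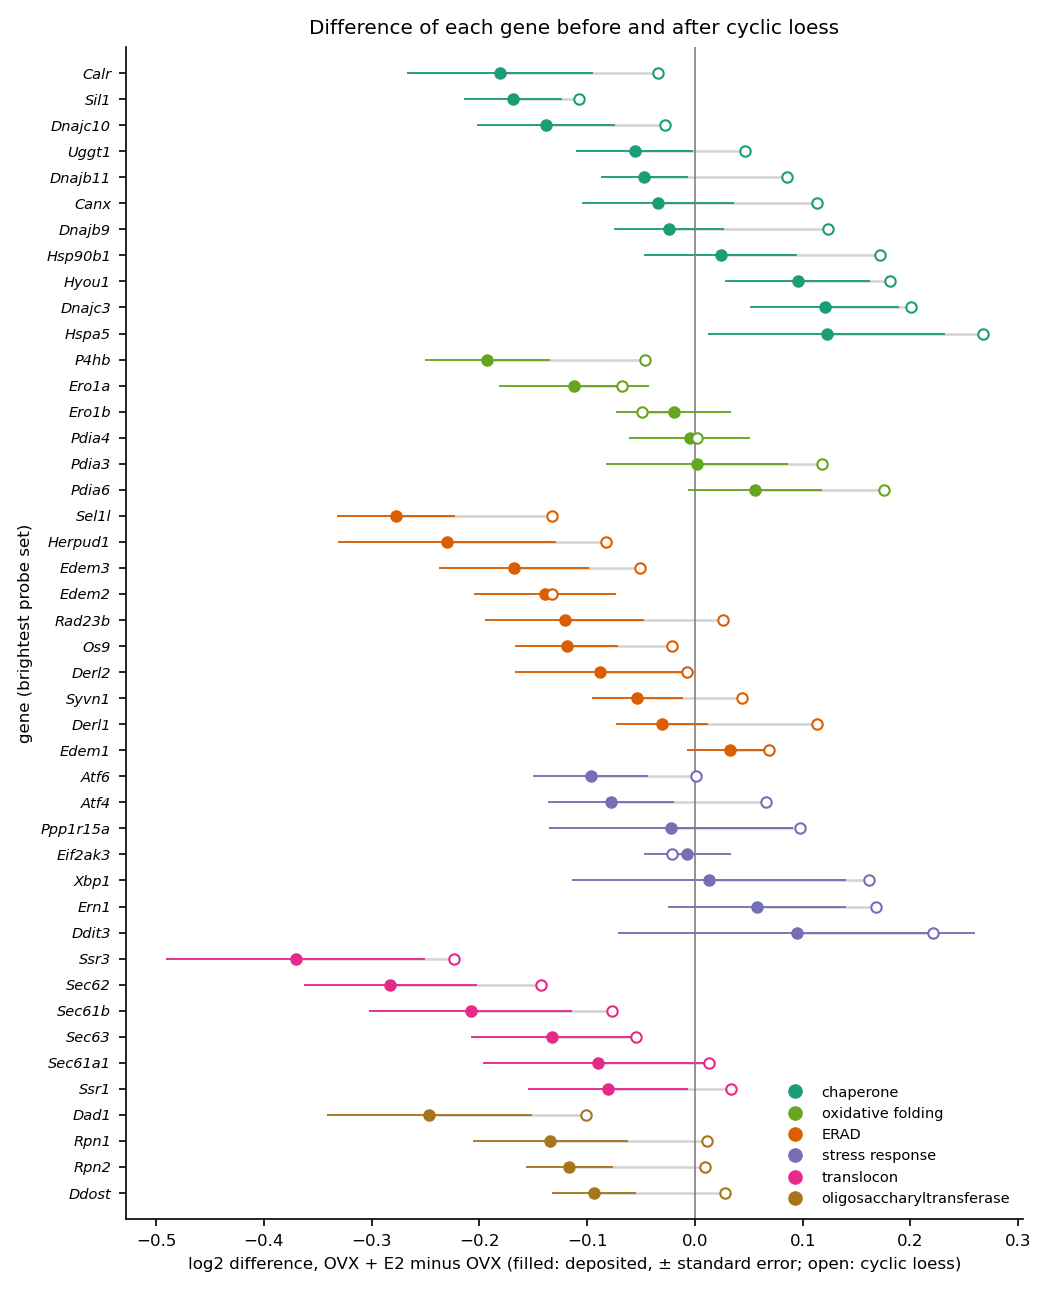
Difference with E2 (log2, OVX + E2 minus OVX, horizontal axis) of each gene's brightest probe set (vertical axis), as deposited (filled, bars are SE) and after cyclic loess (open). Sel1l goes from -0.28 to -0.13 and stays below 0, and Hspa5 goes from 0.12 to 0.27.

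Genes with the stress element in their promoter were set beside those without it. Their 23 probe sets had 13 below 0, 2 lower (8.70%) and 0 higher, with a median of -0.0029. The 82 probe sets of the 31 genes without it had 56 below 0, 19 lower (23.2%) and 3 higher (3.66%), with a median of -0.07. Of all probe sets 9.43% were lower and 4.35% higher. After cyclic loess the first had 0 lower and 4 higher (17.4%, median 0.02) and the second 6 lower (7.32%) and 4 higher (4.88%, median -0.0031), against 4.02% and 3.57% of all. The first set was the brighter, with a median level of 8.31 against 8.03. The difference between them was not tested.

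Other genes of the same pathways were lower more often than higher. Of 251 probe sets of 124 measured genes 57 were lower (22.7%), 7 were higher (2.79%) and 2 passed the limit of the study, with a median of -0.07. The shares of all probe sets were 9.43%, 4.35% and 0.213%. The 251 were brighter, with a median level of 7.72 against 6.92 over the array. Of all probe sets brighter than the median 17.2% were lower, and 32.8% of those with a mean of 8 or more. After cyclic loess 22 were lower (8.76%) and 13 higher (5.18%), against 4.02% and 3.57% of all. Other ERAD genes had 22 of 67 lower and 1 higher, other folding factors 13 of 66 and 3, other translocation and glycosylation genes 13 of 57 and 2, and other stress response genes 9 of 61 and 1. Tmx1, a membrane-bound thioredoxin of the endoplasmic reticulum, passed the limit of the study, with 8.80, 8.81 and 8.77 on the OVX arrays against 8.47, 8.47 and 8.59 with E2. The groups were separate and the difference was -0.28 ± 0.046 (adjusted p = 0.308 in limma), or -0.17 after cyclic loess. Stub1 (CHIP), the ubiquitin ligase that works with HSP70, passed it too, with 9.33, 9.37 and 9.29 against 9.06, 9.14 and 9.09 on 1434412_x_at. The difference of -0.23 ± 0.041 became -0.09 after cyclic loess and was no longer called.

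Vcp (p97), the ATPase that pulls ERAD substrates out of the membrane, measured 11.91, 12.01 and 12.12 on the OVX arrays against 11.75, 11.71 and 11.53 with E2, with no overlap and a difference of -0.34 ± 0.076 (adjusted p = 0.308), or -0.20 after cyclic loess, still called. Bag6, which shields exported substrates, was lower at -0.26. Glucosidase II (Ganab, -0.20) and Creld1 (-0.19) followed among the folding factors. Of the stress genes, Creb3l2, an ATF6 relative, was lower at -0.29, Cebpb at -0.17 and Eif2ak1, the heme-regulated kinase, at -0.32. In translocation and glycosylation the smallest p belonged to Krtcap2 (-0.22), Sec11a of the signal peptidase (-0.18) and Srp14 of the signal recognition particle (-0.16). The genes named from these lists had the smallest p in them, and only Tmx1, Stub1 and Vcp are given with a value after cyclic loess. Over the lists cyclic loess took the lower calls from 57 (22.7%) to 22 (8.76%), and those of all probe sets from 9.43% to 4.02%.

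Levels of markers of fibres and other cell types of muscle are given for each group. Fibroblasts secrete collagen and are rich in this machinery, and 8 of 9 fibroblast genes lay below 0, 3 of them lower, with a mean level of 8.92 to 9.41 on the OVX arrays and 8.83 to 9.07 with E2. All 12 fast-fibre genes lay below 0 and 3 were lower, with 12.89 to 13.53 against 11.45 to 13.03. Over all their probe sets 18.8% of fibroblast and 22.2% of fast-fibre markers were lower, where 9.43% of all probe sets and 32.8% of those with a mean of 8 or more were, and 0 of these 7 calls remained after cyclic loess. The part of fibroblast and fast-fibre differences in the ERAD and translocon values was not tested. Mean levels were 13.14 to 13.55 against 13.38 to 13.49 for slow fibres, 8.23 to 8.79 against 8.29 to 8.45 for endothelium, 7.38 to 7.57 against 7.40 to 7.54 for macrophages and 8.78 to 9.66 against 9.07 to 9.36 for adipocytes. They were 8.43 to 9.11 against 8.66 to 8.84 for Schwann cells and 7.05 to 7.21 against 6.94 to 7.66 for 3 erythroid genes. All of these overlap between groups. Satellite cell genes, at 7.22 to 7.29 against 7.21 to 7.22, met at their ends. Plasma and B cell genes, which are dim, lay at 6.64 to 6.66 against 6.69 to 6.74, with no overlap. Of these 8 genes 0 lay below 0 and 1 was higher, Derl3, at 0.15 ± 0.062. It was no longer called after cyclic loess, at 0.14. Over all their probe sets 11.1% were higher, where 4.35% of all probe sets were. The skeletal muscle list lay at 12.29 to 12.43 against 12.26 to 12.38 and the heart list at 7.36 to 7.56 against 7.45 to 7.62.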

How the data were processed

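The study measured mRNA in 6 samples, 3 OVX and 3 OVX + E2, grouped by the treatment in the sample labels. The authors background-corrected the scans, ran variance stabilization and normalization (VSN), reduced the probes of a set to 1 value with median polish, used R 2.14.2 and deposited the result as log2 values. This scale compresses differences of dim probe sets. Arrays have no read depth, and their number limits the precision.

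All 45101 probe sets, 64 controls included, were fitted in R 4.3.3 by limma 3.58.1 (lmFit, eBayes), with two-sided tests, no covariate and no further normalization. Benjamini-Hochberg adjustment ran over all of them. Genes came from the platform annotation (34958 probe sets with 1 symbol, 932 with several, 9211 with none). Promoters came from the RefSeq table of GRCm38.p6. Each difference with E2 was taken within a probe set. Levels of different probe sets were ranked by brightness, without a test, for the skeletal muscle and heart lists and to pick a gene's brightest. Brightness bins and the median levels of roles and gene sets rest on such comparisons too.

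The members, the lists of other pathway genes and the markers of fibre and cell types were chosen with earlier results of these data known. Named in full were, in each role, up to 3 genes with the smallest p and 15 defining genes, with the brightest probe set, and in each other pathway list up to 3 genes with the smallest p. Other probe sets given beside them were chosen after their values were seen. Shared replicate numbers did not pair the samples. Alternatives were quantile normalization, cyclic loess (3 iterations), median centring, a filter on brightness, the replicate number as a block, a variance trend, array weights, control removal, 1 probe set a gene and arrays left out. RT-qPCR and immunoblots were not analysed here.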

Additional observations from a re-analysis of the deposited data

How the results depend on the processing

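The number of member probe sets at p under 0.05, 24 lower and 3 higher, depended on the normalization: quantile normalization gave 3 and 11, and cyclic loess 7 and 10. Of all probe sets 9.43% were lower and 4.35% higher as deposited, 3.33% and 4.46% after quantile normalization, and 4.02% and 3.57% after cyclic loess. With 1 probe set a gene, 12 of 44 (largest interquartile range) and 10 of 44 (brightest) were lower and 0 and 0 higher. The share among all genes reduced in the same way was not computed, so these counts cannot be read as an excess. Of all probe sets with a mean of 8 or more, 32.8% were lower. The filter on brightness left 1 higher, and a mean of 8 or more, chosen after seeing the data, left 0 higher. Of all probe sets passing each, 1.84% and 0.509% were higher. Leaving out each array in turn gave 16 to 25 lower (16 without OVX replicate 1 or OVX + E2 replicate 3) and 0 to 6 higher (0 without OVX replicate 1 or OVX + E2 replicate 2, 6 without OVX replicate 2). The share of all probe sets moved too. It ran from 5.7% lower without OVX + E2 replicate 3 to 10.1% without OVX replicate 2. Higher ones ran from 2.3% without OVX + E2 replicate 3 to 4.26% without OVX + E2 replicate 2. At 0.001, where 0 passed, 1 did with each array centred on its median, and 0 to 1 with an array left out (1 without OVX + E2 replicate 1). The median over all members was 0.0057 after quantile normalization, -0.0042 after cyclic loess, -0.088 for probe sets brighter than the median, -0.11 at a mean of 8 or more, and with an array left out between -0.0885, when OVX + E2 replicate 2 was dropped, and -0.0351, when OVX + E2 replicate 3 was. After quantile normalization and cyclic loess the medians were 0.0123 and 0.0045 for chaperones, -0.0033 and -0.0208 for ERAD, 0.0842 and 0.0714 for the stress response, and 0.0329 and 0.0102 for the oligosaccharyltransferase. Centring moved chaperones to -0.055 and leaving out both arrays numbered 3 moved ERAD to -0.0642. At a mean of 8 or more the stress response lay at -0.0377 and the translocon at -0.21, and with 1 probe set a gene the translocon lay at -0.16 and -0.17. With an array left out the medians ran from -0.0469 to -0.013 for chaperones, -0.0048 to 0.03 for oxidative folding, -0.14 to -0.09 for ERAD, -0.0189 to 0.0581 for the stress response, -0.13 to -0.05 for the translocon and -0.15 to -0.09 for the oligosaccharyltransferase. Signs turned for Ddost (0.0487 and 0.0281 after quantile normalization and cyclic loess), Rpn2 (0.0356 and 0.0095), Herpud1 (0.0036 after quantile normalization) and Rpn1 (0.0057). The cause was not tested. Of the 27 probe sets called, 8 kept their call after cyclic loess, 5 after quantile normalization, 10 without both arrays numbered 3, 19 with an intensity trend of the variance, 26 with array weights or centring and 27 without control probe sets. Same-numbered arrays did not deviate together (correlations of -0.13, -0.20 and -0.34, and 0 of 6 arrays closest to their own number), and with the replicate number as a block 20 were lower and 3 higher, 20 of them called without it. With the block 7.69% of all probe sets were lower and 2.58% higher.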
